A study of Mus musculus with 48 samples.

Results

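A set of 10 regulators of the epithelial and mesenchymal state was examined in 48 mouse mammary tumors. They are the transcription factors Snai1, Snai2, Twist1, Twist2, Zeb1 and Zeb2, the epithelial transcription factors Grhl2 and Ovol1, and the splicing factors Esrp1 and Esrp2. All 10 members were found on the array by their annotated symbol, each with 1 transcript cluster, among 19938 measured genes. The tumors came from 12 models with 4 independent tumors each, and every tumor was hybridized to its own Affymetrix array. Values are log2 signal, so a difference of 1 is a doubling of signal, and levels of different genes are not compared because they rest on different probes. The lines TS/A-E1, F311, 4T1, EMT-6 and D2A1 derived from spontaneous tumors of BALB/c mice, and Met-1, MVT-1, 6DT1, M6 and HRM-1 from tumors of engineered FVB/N mice. E0771 was a spontaneous C57BL/6 model and R3T an engineered 129Sv model. In every model cells of an established line were placed in the #4 mammary fat pad of immunocompetent syngeneic mice, and tumors were taken at a diameter of 0.5 to 1.0 cm. For the 4T1, F311 and MVT-1 models the study's methods name female hosts of 6 to 8 weeks, and derive MVT-1 from a tumor carrying MMTV-driven Myc and VEGF transgenes. Host ages of the other models and the alleles of the other engineered lines were not given in the sources used here. The 4 tumors of a model share their cell line and the p-values below measure the spread between such tumors.

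Epithelial cells adhere to their neighbors through E-cadherin and tight junctions and can lose this state in the program called epithelial-mesenchymal transition (EMT). Snail, Twist and Zeb factors drive this program, and Snail and Zeb proteins repress E-cadherin by binding E-box motifs. Grhl2 and Ovol1 hold the epithelial state as transcription factors, while Esrp1 and Esrp2 enforce the epithelial pattern of alternative splicing. Zeb1 and Zeb2 are in turn held down by the microRNAs of the miR-200 family, which pair with sites in their transcripts, and the Zeb factors repress the genes of these microRNAs. TGF-β, the subject of the study, is a classical inducer of EMT in mammary epithelium.

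The mature miR-200 sequences are shown because their seeds define which transcripts they pair with, and capitals mark the seed, bases 2 to 8. Those of miR-200a and miR-141 are identical, as are those of miR-200b, miR-200c and miR-429. Sequences and positions are from RefSeq, build GRCm38.p6, and all 5 lie on the minus strand, at chr4:156054911-156054932, chr4:156055685-156055706, chr4:156053916-156053937, chr6:124718324-124718346 and chr6:124717917-124717938 in the order listed.
mmu-miR-200a-3p: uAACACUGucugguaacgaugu
mmu-miR-200b-3p: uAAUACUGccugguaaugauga
mmu-miR-429-3p: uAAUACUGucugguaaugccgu
mmu-miR-200c-3p: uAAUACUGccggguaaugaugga
mmu-miR-141-3p: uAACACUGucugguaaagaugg

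The arrays were on a common scale, with upper quartiles of 8.89 to 9.06, and no pair was identical. The keratins Krt8 and Krt18 of luminal epithelium averaged at least 11.01 and 8.10 in every model. The lowest Krt18 mean was that of E0771, with a wide spread between its tumors (SD 1.78, n = 4). The epithelial adhesion gene Epcam averaged only 6.31 in D2A1, 6.43 in MVT-1 and 6.87 in E0771. These means were not far above 6.02, the 95th percentile of 1027 olfactory receptor genes, which served as a rough background. In 9 tumors the score of the adipocyte or B cell marker genes (the mean log2 difference of its genes from their medians over the tumors) exceeded 2.5. These were 4T1 replicate 3, 6DT1 replicates 2 and 3, E0771 replicate 1, EMT-6 replicate 3, F311 replicates 1 and 2, Met-1 replicate 2 and R3T replicate 2, and they are called rich in host tissue below. Over 7 of 8 adipocyte genes the score reached 4.23 in them and at most 2.19 in the other 39 tumors. Over 7 of 8 B cell genes it reached 4.92 against 1.63, and 4 of these 7 genes, Cd79a, Ms4a1, Fcer2a and Cr2, averaged within the olfactory receptor range in the other 39 tumors. Muscle scores were highest in E0771 replicate 3 (4.40) and M6 replicate 3 (3.67), against at most 1.57 in all other tumors. The part of host tissue in the results below was not tested beyond fits without these tumors. In whole tumors fewer cells of a type and less RNA per cell cannot be told apart.

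All 10 members differed among the 12 models in limma's F-test at an adjusted p under 0.05, where 70.4% of all genes did. The models differed least in Snai1, whose means spanned 1.20, and most in Esrp1, whose means spanned 4.80, compared with a median span of 0.68 over all genes. The 4 epithelial regulators passed in 149 of 264 comparisons between 2 models and the 6 EMT transcription factors in 147 of 396, together 296 of 660 or 44.8%, against 26.5% over all genes. Pairs of models share tumors, so these comparisons are not independent. Between neighbors in the order of a gene's model means, 4 of 110 steps passed (3.64%, against 2.55% of all genes), so in most places the order of adjacent models was not resolved.

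Esrp1 had the widest range of model means among the members, while Grhl2 had more pairs of models passing (43 against 40 of 66) and Twist2 a slightly wider step between neighbors (1.48 against 1.46). Its signal was 6.06, 6.46, 5.83 and 5.72 in the 4 D2A1 tumors and 5.93, 6.38, 5.73 and 6.08 in the 4 MVT-1 tumors. Both model means, 6.02 and 6.03, lay within the olfactory receptor range of their model, and those of no other model or member did. In E0771 it was 7.68, 5.99, 5.80 and 5.92, and in EMT-6 6.47, 6.27, 7.38 and 5.79, and the highest tumor of each was the one rich in host tissue. The tumors of these 4 models did not overlap with those of F311, R3T, TS/A-E1, 4T1, HRM-1, M6 and Met-1, in which Esrp1 ranged from 8.63 to 11.33. In Met-1 it averaged 10.82 ± 0.83 (SD, n = 4), 27.8-fold above D2A1 (difference 4.80, SE 0.57, limma adjusted p = 1.035e-08), a fold measured against a level within background. Among the high models, M6, HRM-1, 4T1 and TS/A-E1 averaged 10.74, 10.55, 10.43 and 10.26, and no adjacent pair of them differed beyond the spread.

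6DT1 fell on both sides of this division. Its Esrp1 signal was 5.92 in replicate 1 and 5.98 in replicate 4, as in D2A1, but 9.72 in replicate 2 and 10.14 in replicate 3. The latter 2 tumors were those rich in adipocyte genes, with scores of 3.90 and 4.23 against -1.26 and -1.32. Their luminal scores were 0.59 and 0.27 against -1.66 and -1.68 and their basal scores 1.96 and 2.59 against -0.75 and -0.67. Grhl2 followed with 6.04, 8.16, 8.29 and 6.04 in replicates 1 to 4, and Esrp2 with 6.70, 8.93, 9.53 and 6.54. Over all 4 tumors the Esrp1 mean of 6DT1 was 1.46 above that of EMT-6 (adjusted p = 0.0464), 1 of the 4 steps between neighbors that passed. Without the tumors rich in host tissue it was 0.23 below EMT-6 and the difference no longer passed (adjusted p = 0.550).

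Esrp2 ordered the models much as its paralog did. It was lowest in MVT-1, at 6.72, 6.84, 6.79 and 6.70, and highest in M6, at 10.18, 9.79, 9.25 and 10.03. Means of 6.76 ± 0.07 and 9.81 ± 0.41 (SD, n = 4) differed 8.30-fold. Tumors of D2A1, EMT-6, E0771 and MVT-1 ranged from 6.45 to 7.56 and those of the 7 models high in Esrp1 from 7.69 to 10.18, again without overlap. Each adjacent step was within the spread, the widest being 0.76 between 6DT1 and EMT-6 (adjusted p = 0.133).

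Grhl2, which activates junction genes including Cdh1, was highest in M6, with 9.74, 9.87, 8.54 and 9.46 in the 4 tumors. It was lowest in MVT-1, with 6.15, 6.11, 5.90 and 6.07. The groups did not overlap and the means of 9.40 ± 0.60 and 6.06 ± 0.11 (SD, n = 4) differed 10.1-fold. The MVT-1 mean was barely above 6.05, the 95th percentile of olfactory receptor genes in that model. This fold was thus measured against a level near background, and the means of 6.14 in D2A1 and EMT-6 were near it too. TS/A-E1 was the exception to the shared pattern of Grhl2 and the Esrp genes. Its Grhl2 signal of 6.38, 6.77, 6.52 and 6.57 was 2.17 below HRM-1 (limma adjusted p = 9.176e-06). Of the E0771 tumors only replicate 1, rich in host tissue, overlapped it, at 6.78, while the others read 6.13, 6.16 and 6.25. The Esrp1 signal of TS/A-E1, at 10.09, 10.39, 10.48 and 10.08, was only 0.30 below HRM-1. That difference did not pass (SE 0.57, limma adjusted p = 0.884). The difference in Grhl2 between TS/A-E1 and MVT-1 was 0.50 (limma adjusted p = 0.401), and it passed without the tumors rich in host tissue (adjusted p = 0.0221). Neither model held such a tumor, so the difference itself was the same. The fits differed only in tumors of other models, which share the estimate of spread.

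Ovol1, a zinc finger repressor active in epidermal differentiation, was dim and spanned only 1.33 between model means. It was highest in M6, at 7.65, 7.66, 6.73 and 7.67, and in HRM-1, at 7.47, 7.35, 7.51 and 7.29. It was lowest in EMT-6, at 5.94, 6.00, 6.34 and 6.11, and the M6 tumors did not overlap with these. The difference between M6 and EMT-6 was 2.51-fold, and Ovol1 passed the F-test (adjusted p = 9.947e-07). The EMT-6 mean of 6.10 was close to 5.97, the 95th percentile of olfactory receptor genes in that model. Unlike Grhl2 and the Esrp genes, Ovol1 was high in E0771, where it averaged 7.19 ± 0.24 (SD, n = 4), rank 3 of the 12 models.

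**Figure D1:**
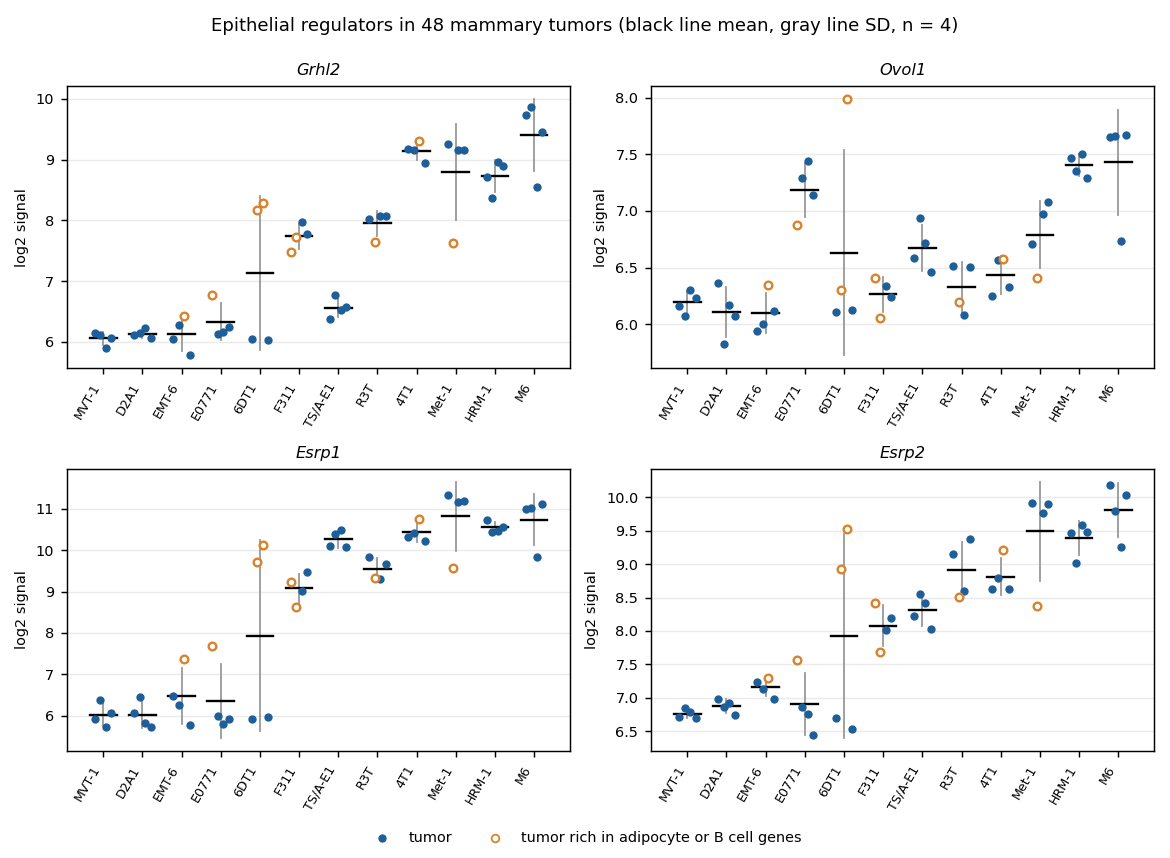
Log2 signal of Grhl2, Ovol1, Esrp1 and Esrp2 in each of 48 tumors, by model in the order of the mean deviation of these 4 genes from their averages; points are tumors, white points with an orange rim tumors rich in host tissue, black lines means and gray lines SD (n = 4). MVT-1, D2A1, EMT-6 and E0771 are low in Grhl2 and both Esrp genes, the 2 rich 6DT1 tumors sit apart from the other 2, and TS/A-E1 is low in Grhl2 but not in Esrp1.

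Among the EMT transcription factors, Twist2 had the widest span. Its signal was 10.53, 11.09, 11.09 and 11.05 in the 4 E0771 tumors, and the lowest of these was the tumor rich in adipocyte genes. All 4 lay above every other tumor, the next being M6 replicate 3 at 10.01. The E0771 mean of 10.94 ± 0.28 (SD, n = 4) was 1.48 above TS/A-E1, the second model (adjusted p = 5.277e-05), and E0771 passed against each of the other 11 models. Met-1 was lowest, at 7.78, 7.63, 7.58 and 7.57, which was 9.86-fold below E0771.

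Twist1, a related basic helix-loop-helix factor, had another order. It was highest in D2A1, at 10.04, 9.65, 9.88 and 9.47, followed by R3T at 9.66, 9.43, 9.98 and 9.67. M6 was lowest, at 7.27, 7.33, 8.07 and 7.42. The step of 1.10 from Met-1 down to M6 passed (adjusted p = 2.457e-05), although Met-1 replicate 2, rich in B cell and adipocyte genes, overlapped M6 at 7.79. Between the other 11 models the means lay within 8.62 to 9.76 and no adjacent step passed.

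Zeb1 was highest in MVT-1, with 10.67, 10.32, 10.56 and 10.38, and E0771, with 10.11, 10.44, 10.18 and 10.33. By model mean it was lowest in TS/A-E1, with 8.53, 8.45, 8.63 and 8.44. By median M6 was lower, at 8.41 against 8.49 in TS/A-E1. The MVT-1 and TS/A-E1 tumors did not overlap and their means differed 3.92-fold (F-test adjusted p = 3.19e-08). In 3 models a single tumor carried much of the spread. M6 replicate 3 read 10.02 against 8.03 to 8.45 in the other M6 tumors, Met-1 replicate 2 read 9.97 against 8.26 to 8.87, and F311 replicate 1 read 9.85 against 8.66 to 8.86. The Met-1 and F311 tumors were rich in host tissue and the M6 tumor was one of the pair with high muscle scores.

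Zeb2 was lowest in M6, at 8.24, 9.08, 9.70 and 8.87. The M6 mean of 8.97 ± 0.60 (SD, n = 4) was 0.75 below Met-1 (limma adjusted p = 0.00275) and 1.72 below E0771, the highest model. M6 replicate 3 overlapped Met-1, whose lowest tumor read 9.27. Without its tumor rich in host tissue Met-1 averaged 9.57. E0771 tumors read 10.83, 10.61, 10.72 and 10.61 and did not overlap with M6. Means of EMT-6, TS/A-E1, D2A1 and F311 were 10.55, 10.54, 10.47 and 10.45, and no step among these 5 models passed. Zeb2 is also expressed by macrophages, and over the 12 model means it correlated with the macrophage score (9 of 10 markers measured, r = 0.70). That r leaned on M6, which was lowest in both Zeb2 and the score. The next lowest macrophage score was that of Met-1, at -0.31, and E0771, highest in Zeb2, had -0.29. This r was not computed without M6. Between tumors within models Zeb2 also correlated with the macrophage score (r = 0.76, 48 tumors, and r = 0.77 in the 39 tumors). The part of macrophages in the Zeb2 levels was not tested.

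Snai1 and Snai2, the Snail family members, varied least between models in relation to the spread within them. Models accounted for 53.0% and 55.6% of their variance, compared with 70.7% to 89.0% for the other members. Snai1 was highest in D2A1, at 10.83, 10.27, 10.65 and 10.22, and lowest in Met-1, at 9.43, 8.63, 9.49 and 9.64. These groups did not overlap and differed 2.29-fold, and 13 of 66 pairs of models passed. The highest tumor of all was M6 replicate 3, at 11.16 against 9.42 to 9.67 in the other M6 tumors, and without it 23 pairs passed. Snai1 passed the F-test in the full data (adjusted p = 0.00147) but not when replicate 2 of each model was left out (adjusted p = 0.0751).

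Snai2 was highest in TS/A-E1, at 8.94, 8.73, 8.97 and 8.77, and lowest in E0771, at 7.85, 6.48, 7.39 and 7.09. E0771, which was highest in Twist2 and Zeb2, was thus lowest in Snai2, 3.13-fold below TS/A-E1. In 6DT1 the 2 tumors rich in adipocyte genes read 9.33 and 9.48 and the other 2 read 6.95 and 7.75. Snai2 correlated with the fibroblast score (10 of 10 markers measured) between tumors within models (r = 0.84, 48 tumors, and r = 0.82 in the 39 tumors). Over the 12 model means that r was 0.39. Other scores also went with Snai2 within models, with 0.68 over 48 tumors and 0.72 over the 39 for macrophages. For endothelium r was 0.78 and 0.36, and for the basal score 0.77 and 0.25. The part of these cell types was not tested. Without the 9 tumors rich in host tissue 28 pairs of models passed for Snai2 instead of 15.

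**Figure D2:**
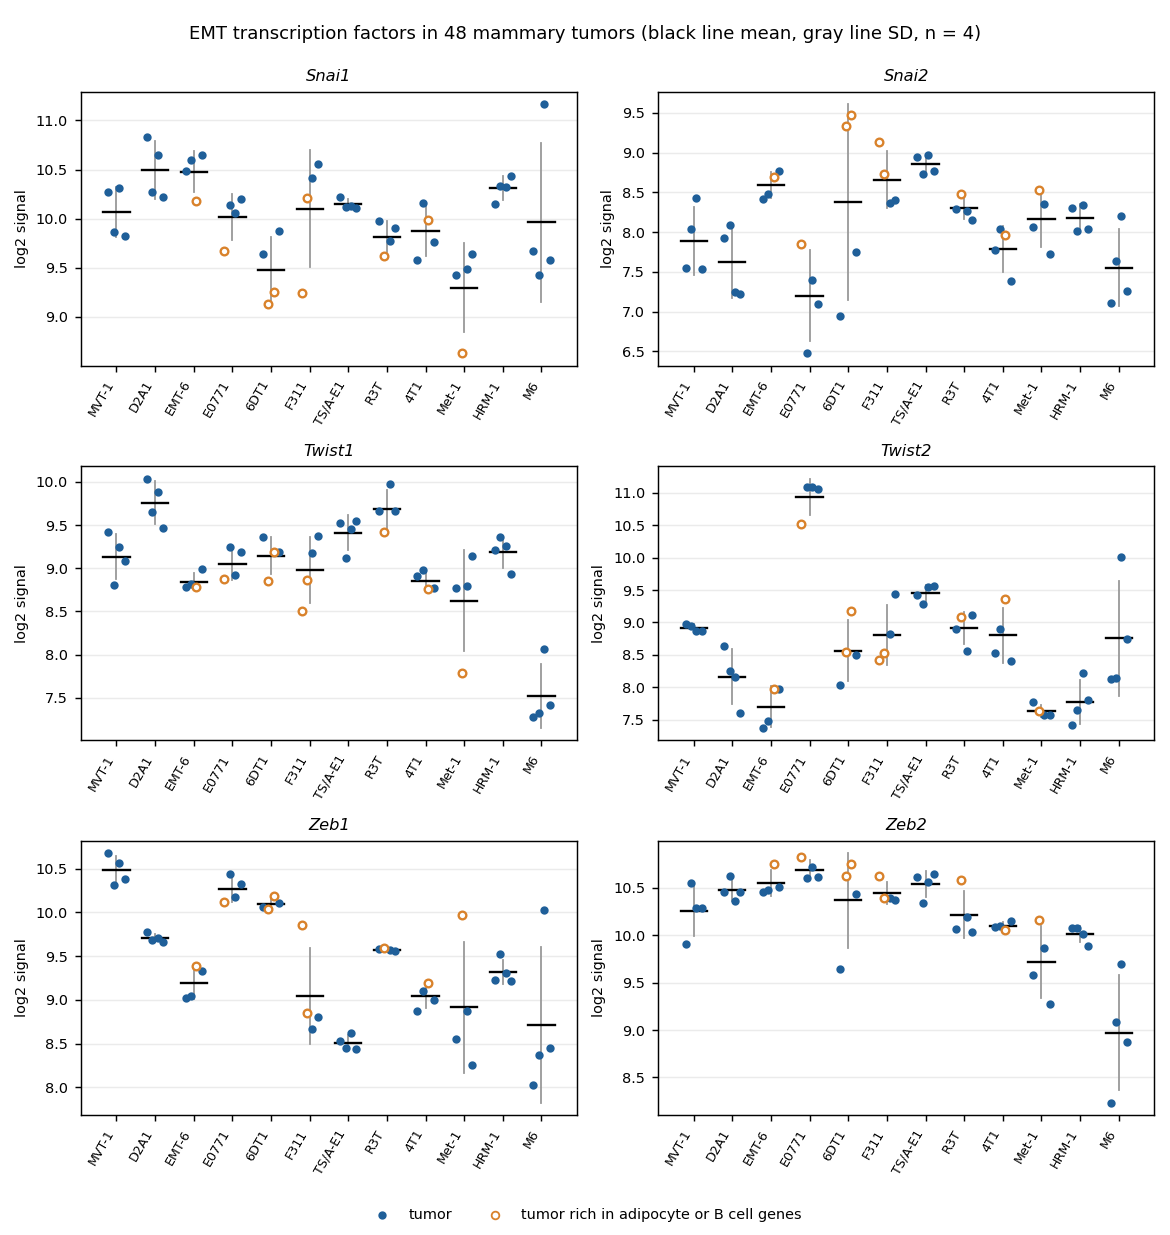
Log2 signal of the 6 EMT transcription factors in each of 48 tumors, with the models in the same order as for the epithelial regulators; points are tumors, white points with an orange rim tumors rich in host tissue, black lines means and gray lines SD (n = 4). Twist2 stands out in E0771 at 10.53 to 11.09, and Twist1 and Zeb2 are lowest in M6. M6 replicate 3 lies well above the other M6 tumors in Snai1, Twist2 and Zeb1, of which only Snai1 meets Dixon's criterion used further below.

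The Snai1 promoter is shown because Snail factors bind the E-box motifs CACCTG and CAGGTG and Snai1 is known to regulate its own gene. Promoter windows from 250 bases before to 50 after the start were matched for 4 members, Snai1, Twist1, Twist2 and Zeb2, with 7 windows in all. Capitals mark the 1 match found in them, CACCTG at position 125 of the Snai1 window (RefSeq, GRCm38.p6, chr2:167537945-167538244, plus strand). The 2 motifs are the same site read on the 2 strands, and 20.3% of 32544 windows hold at least 1.
Snai1 promoter: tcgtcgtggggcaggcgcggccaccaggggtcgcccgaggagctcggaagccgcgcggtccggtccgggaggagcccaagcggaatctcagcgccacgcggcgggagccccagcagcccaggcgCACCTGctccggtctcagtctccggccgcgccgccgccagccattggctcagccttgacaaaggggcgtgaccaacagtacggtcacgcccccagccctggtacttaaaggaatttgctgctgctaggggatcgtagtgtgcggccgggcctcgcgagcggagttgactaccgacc

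Correlations between members were computed over the 12 model means as a description. Points share arrays, scaling and host tissue. The epithelial regulators went together, with r between 0.49 and 0.95 in all 6 pairs, highest for Esrp1 with Esrp2 (0.95) and Grhl2 with Esrp2 (0.93). Grhl2 with Esrp1 had r = 0.87, and 0.98 without TS/A-E1. The EMT transcription factors did not move as a block, since their 15 pairs ranged from -0.42 for Snai2 with Zeb1 to 0.78 for Twist1 with Zeb2, with a median of 0.25. The value of 0.78 rested on M6, and was 0.34 without that model.

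Between the 2 kinds of regulators r was below 0 in 21 of 24 pairs, with a median of -0.43. The lowest values were those of the Zeb factors, -0.78 for Zeb2 with Grhl2, -0.77 for Zeb2 with Esrp2 and -0.76 for Zeb1 with Esrp1. Snai1 with Esrp1 had r = -0.42 and Twist2 with Esrp1 -0.22. The 3 pairs above 0 were Snai2 with Esrp1 (0.26), Snai2 with Esrp2 (0.13) and Twist2 with Ovol1 (0.21).

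Within models the picture depended on the tumors rich in host tissue and on M6 replicate 3. Over the deviations of all 48 tumors from their model means, the 24 pairs of an EMT factor with an epithelial regulator had a median r of -0.02, with 13 below 0. Over the 39 tumors left without the rich ones the median was -0.52, and 24 of 24 pairs were below 0. This opposition rested on M6 replicate 3, the tumor with the muscle score of 3.67. With that tumor also left out, the median over 38 tumors was -0.08, with 14 of 24 pairs below 0, and Zeb1 with Grhl2 went from -0.81 to -0.41. Without 6DT1 alone the median was -0.21. The 15 pairs of EMT factors were all above 0 in the 39 tumors, and 12 of 15 were in the 38, where Snai1 with Zeb1 went from 0.82 to 0.29. The 6 pairs of epithelial regulators likewise went from a median of 0.61 to 0.27, with Esrp1 and Esrp2 at 0.49.

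**Figure D3:**
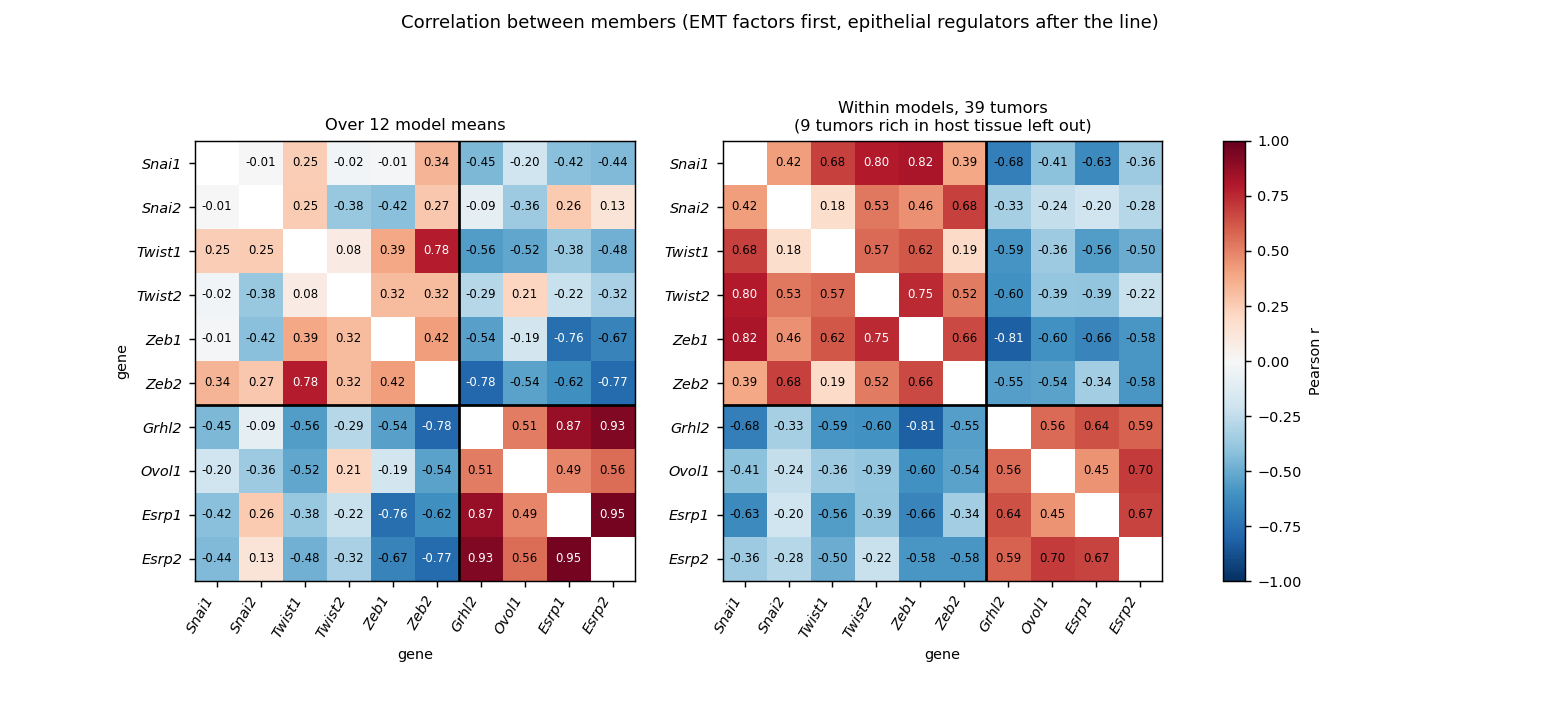
Pearson r between members over the 12 model means (left) and over deviations from model means in the 39 tumors not rich in host tissue (right); both axes list the genes, lines separate the 6 EMT factors from the 4 epithelial regulators, red is above 0 and blue below. The pairs of 1 factor of each kind are below 0 in 21 of 24 cases on the left and 24 of 24 on the right, where only 14 of 24 remain below 0 without M6 replicate 3.

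**Figure D4:**
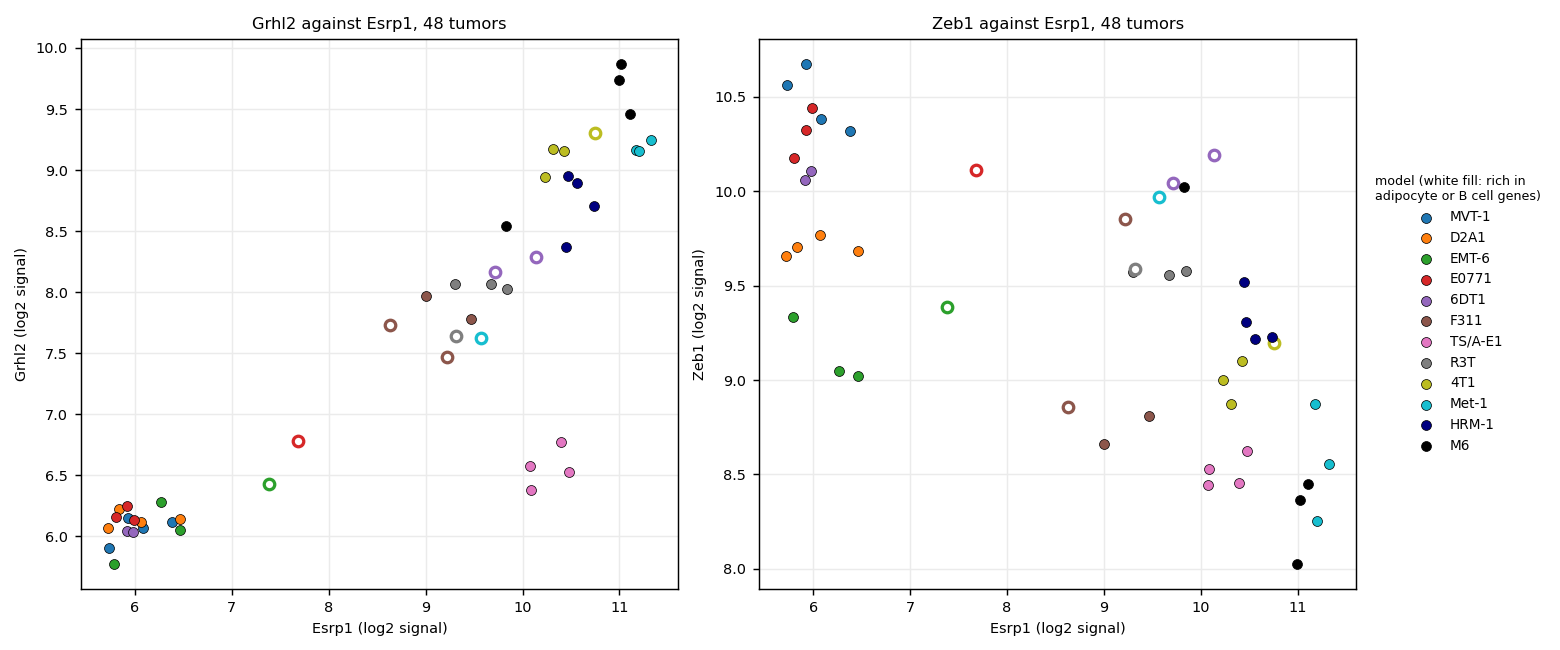
Log2 signal of Grhl2 (left) and Zeb1 (right) against that of Esrp1 in 48 tumors, colored by model, with white fill for tumors rich in host tissue. Grhl2 rises with Esrp1 except in TS/A-E1, and the tumors with Esrp1 below 6.5 include the highest Zeb1 values, up to 10.67. EMT-6 is an exception for Zeb1, since its replicates 1, 2 and 4 are also below 6.5 in Esrp1 but read 9.02, 9.05 and 9.33 for Zeb1.

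In array signal for the miR-200 genes, measured by probes for the longer primary or precursor RNA and picked after their values were seen, Mir200b was highest in M6, at 7.80, 7.01, 5.55 and 6.13. D2A1 was lowest, at 5.21, 4.91, 5.03 and 5.20. The means of 6.62 ± 0.99 and 5.09 ± 0.14 (SD, n = 4) did not overlap in their tumors, and Mir200b passed the F-test (adjusted p = 2.655e-05). In 10 of 12 models its mean was within the olfactory receptor range. Over the 12 means it had r = 0.88 with Grhl2 and r = -0.84 with Zeb2, but -0.38 with Zeb1. Mir200a passed with a span of only 0.43 (adjusted p = 0.0294), and Mir200c and Mir141 did not pass (adjusted p = 0.133 and 0.554), with all 12 model means within the background range. The probes of Mir429 are annotated to more than 1 gene and gave no value.

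The members were next set beside 6 lists of related genes, again over the 12 model means. Of 25 measured epithelial junction and surface genes, 25 passed the F-test, which 70.4% of all genes passed, and 25 of 25 had r above 0 with Esrp1, with a median of 0.87 where the median of all genes was -0.06. With Zeb1 and Zeb2 the same 25 genes were all below 0, with medians of -0.53 and -0.61 where all genes had 0.07 and 0.02. Cldn7, a claudin of tight junctions, averaged 10.60 ± 0.53 (SD, n = 4) in M6 and 6.82 ± 0.07 in D2A1 and had r = 0.97 with Esrp1. Cgn, which encodes the tight junction protein cingulin, averaged 11.26 ± 0.71 in M6 and 6.55 ± 0.33 in E0771 and had r = -0.88 with Zeb2. Spint2, an inhibitor of epithelial surface proteases, had r = -0.81 with Zeb1 and 0.95 with Esrp1, and Cdh1, E-cadherin, had r = 0.96 with Esrp1.

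Of 13 other epithelial transcription factors 12 passed (70.4% of all genes), with a median r with Esrp1 of 0.37. Of these 13 genes 11 had r above 0 with Esrp1. Elf3, an epithelial Ets factor, had r = 0.85, Ehf 0.48 and Gata3, the luminal regulator, 0.38, while Klf4 went the other way with -0.32. Ovol2, the paralog of Ovol1 and a known repressor of Zeb genes, was singled out after its values were seen, because among 19937 genes it had the lowest r with Zeb2, -0.96 (Spearman's rho = -0.90). Its signal was 7.72, 7.95, 7.37 and 7.70 in M6, and in D2A1, the lowest model, 6.92, 6.57, 6.93 and 6.87. Ovol2 thus spanned only 0.86 between models, and leaving out any 1 model kept r with Zeb2 between -0.98 and -0.90. Because Ovol2 was picked by this r over the same model means, these values are no independent check of it. Within models the r of Ovol2 with Zeb2 was weaker, at -0.27 over 48 tumors, -0.41 over 39 and -0.16 without M6 replicate 3.

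Of 13 other EMT transcription factors 12 passed as well (70.4% of all genes), but they had no common direction, with 7 above 0 with Esrp1 and a median of 0.09. Sox9 and Sox4, factors of progenitor cells, had r = 0.65 and 0.62 with Esrp1, Foxc2 had 0.34 and Klf8 0.09. On the other side, and named after its values were seen, Prrx1, a mesenchymal homeobox factor, had r = -0.73 with Esrp1 and 0.81 with Zeb2. Of 13 splicing regulators 12 passed (70.4% of all genes), with a median r with Esrp1 of 0.02. Rbm47, an epithelial RNA-binding protein, had r = 0.77 with Esrp1, and Mbnl3, which averaged 10.52 ± 0.08 in R3T and 6.65 ± 0.11 (SD, n = 4) in D2A1, 0.61. Rbfox2, another splicing factor named after its values were seen, went the other way, with r = -0.77 with both Esrp1 and Grhl2. Of 18 measured mesenchymal and matrix genes 18 passed (70.4% of all genes), with a median r with Esrp1 of -0.06, as over all genes. Vim, the intermediate filament vimentin, had r = 0.80 with Zeb2 but spanned only 0.38, from 13.47 ± 0.04 in D2A1 to 13.10 ± 0.04 in Met-1 (SD, n = 4). Cdh2, N-cadherin, was highest in Met-1 at 9.17 ± 0.91 and lowest in E0771 at 6.17 ± 0.20 (SD, n = 4), and had r = -0.84 with Zeb2 and 0.51 with Esrp1.

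**Figure D5:**
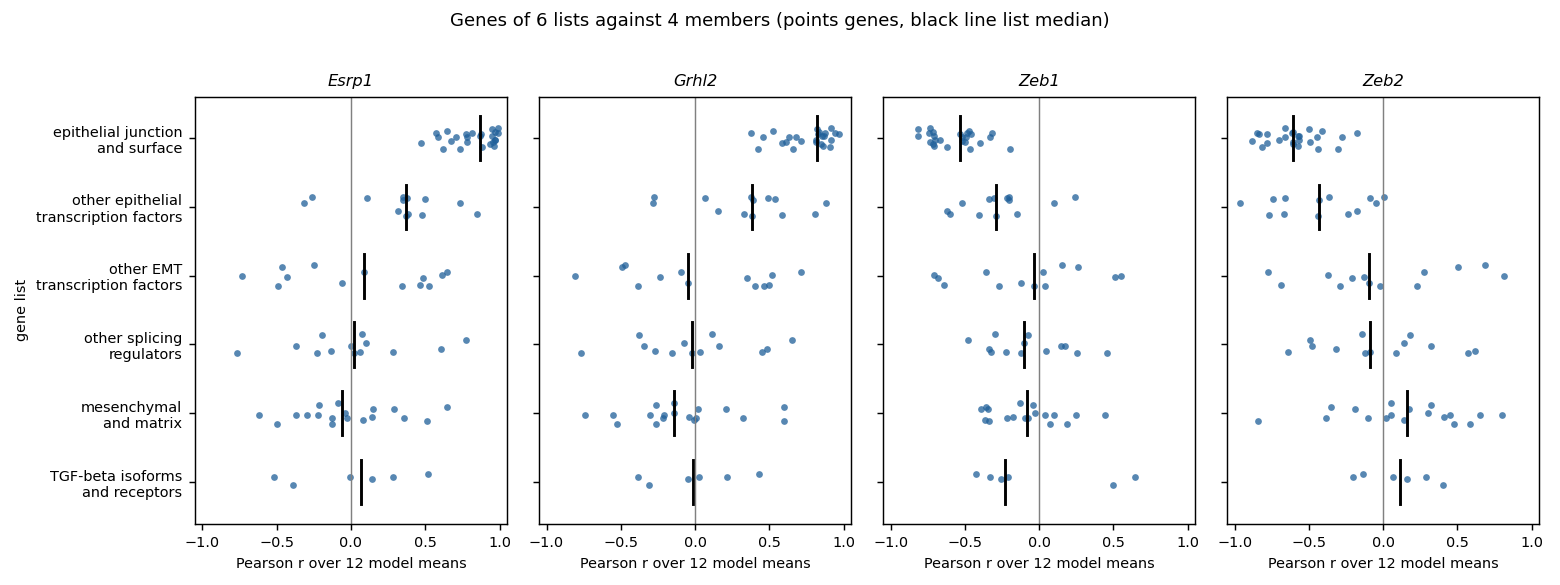
Pearson r over the 12 model means (x axis) between each gene of 6 lists (rows) and Esrp1, Grhl2, Zeb1 and Zeb2 (panels); points are genes and black lines list medians. The 25 junction and surface genes lie to the right of 0 for Esrp1 and Grhl2 and to the left of 0 for Zeb1 and Zeb2, while the mesenchymal and matrix genes lie on both sides.

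Of 6 TGF-β isoform and receptor genes 6 passed the F-test, which 70.4% of all genes passed. The relations of the isoform genes Tgfb1, Tgfb2 and Tgfb3 to the members over the 12 model means were moderate. The highest were Snai1 and Zeb1 with Tgfb1 (r = 0.54 and 0.50, rho = 0.31 and 0.55), and the lowest was Twist2 with Tgfb2 (r = -0.54, rho = -0.56). Within models Tgfb1 was opposite to Esrp2, Esrp1 and Grhl2, with r = -0.88, -0.84 and -0.81 over 48 tumors. These values rested on the tumors rich in host tissue, since over the other 39 they were -0.22, -0.25 and -0.06. In 6DT1, a model singled out here after its values were seen, Tgfb1 read 11.06 and 11.12 in replicates 1 and 4 and 10.14 and 9.86 in replicates 2 and 3, high where Esrp1 was low. Tgfb3 went the other way between the sets of tumors, with r of 0.02 for Zeb1, 0.14 for Grhl2 and 0.10 for Esrp1 over 48 tumors and 0.69, -0.61 and -0.60 over the 39. Without M6 replicate 3 the latter were 0.10, -0.06 and -0.19.

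Genes with the most similar pattern over the 12 model means were sought among the 6241 genes whose means spanned at least 1. For Esrp1 they were Lsr, a protein of tricellular junctions (r = 0.99), the adhesion gene Epcam (0.99) and Serpinb5, which encodes maspin (0.98). For Esrp2 they were Cldn7 (0.98), Epcam (0.97) and Rab25, an epithelial trafficking GTPase (0.97), and for Grhl2 Prom2 (0.97), Rab25 (0.97) and Tmem54 (0.96). Within models Esrp1 had r = 0.96 with Epcam over 48 tumors and 0.77 over the 39. For Ovol1 they were Hspbap1, Zfp943 and Nanos1 (0.89, 0.87 and 0.85), with r of at most 0.11 within models over 48 tumors.

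For the EMT factors the most similar genes were others. Zeb2 was followed by Camk2d, a calmodulin-dependent kinase, Snx10, a sorting nexin, and Fmnl2, a formin (0.95, 0.95 and 0.90), with r of at most 0.14 within models over 48 tumors. Over the 39 tumors Fmnl2 had 0.65, and 0.29 without M6 replicate 3. Zeb1 was followed by Arap3, Osbp2 and Sync (0.91, 0.87 and 0.85), Twist1 by Cyth3, Plin2 and Mfsd1 (0.88, 0.87 and 0.86), and Twist2 by Iffo2, Zbtb44 and Nfrkb (0.90, 0.86 and 0.85). Snai1 went with Cald1, the actin-binding caldesmon (0.89), Gsto1 (0.88) and Cnn2, a calponin (0.88). Snai2 went with Tgfbr2, a TGF-β receptor (0.88), Csf2rb2 (0.84) and Xylt1 (0.81), and with Tgfbr2 also within models (0.84 over 48 tumors and 0.80 without the rich tumors and M6 replicate 3).

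Strain and origin did not separate the members. Every BALB/c model was spontaneous and every FVB/N model engineered, so strain and origin cannot be told apart between them. In limma on model means, 5 BALB/c against 5 FVB/N, 0 of 10 members passed at an adjusted p under 0.05, where 0.191% of all genes did (0.0953% higher and 0.0953% lower in BALB/c). At an unadjusted p under 0.05 there were 2 of 10, against 8.01% of all genes, and the methods' t-test gave 0. These 2 were Ovol1, which averaged 6.31 in BALB/c and 6.89 in FVB/N models (difference -0.58, SE 0.24, adjusted p = 0.606), and Zeb2, which averaged 10.42 and 9.87 (difference 0.56, SE 0.25, adjusted p = 0.622). Esrp1 differed by -0.76 with an SE of 1.24, since BALB/c model means ran from 6.02 to 10.43 and FVB/N means from 6.03 to 10.82. It ran from -1.56 without MVT-1 to -0.15 without D2A1, and the Zeb2 difference fell to 0.33 without M6.

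With E0771 and R3T included, 6 spontaneous models were compared with 6 engineered ones. Again 0 of 10 members passed at an adjusted p under 0.05, where 0.0401% of all genes did (0.0201% higher and 0.0201% lower in spontaneous models). At an unadjusted p under 0.05 it was 1 of 10, against 6.8% of all genes, and 1 by the methods' t-test. This was Zeb2 in both, with means of 10.47 in spontaneous and 9.92 in engineered models (difference 0.54, SE 0.22, limma adjusted p = 0.677), and the difference was 0.35 without M6. Esrp2 averaged 7.69 in spontaneous and 8.71 in engineered models (difference -1.02, SE 0.55, adjusted p = 0.792). The 2 comparisons share 10 models.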

How the data were processed

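RNA from each tumor (100 ng) had been amplified and hybridized to an Affymetrix mouse gene array, and the values the authors deposited are processed log2 signal, 1 per array for each of 35556 transcript clusters. The software and normalization were not given in the sources used here, and the number of arrays limits the precision. Groups and replicate numbers came from the sample labels. Clusters annotated to 1 gene were kept (21789; 1621 named several and 12146 none), and of several clusters of a gene that with the highest average signal was taken, which left 19938 genes. Each tumor model formed a group in limma 3.58.1 (R 4.3.3), which gave an F-test and contrasts for 66 pairs of models. Strain and origin were tested with limma on model means. P-values were adjusted by the Benjamini-Hochberg method over all genes, with a threshold of 0.05. The fits were tested on simulated data. Correlations, computed in Python 3.11.15 with pandas 2.3.3, are descriptions without a test. Members and gene lists were chosen with earlier results of these data known, as was the host score limit of 2.5. Named genes are the members, the 3 most similar genes of each, up to 4 genes of each list with the smallest F-test p, epithelial markers and the TGF-β isoforms. Deviations of same-numbered tumors of different models had a median r of 0.03 (from -0.65 to 0.56), against 0.0029 for different numbers. Tumors were therefore not treated as pairs by number, but these medians cannot show whether same-numbered tumors were processed together. Alternatives were quantile normalization, centring, averaging the clusters of a gene, a filter removing the dimmest 30%, an intensity trend or robust prior, blocks, medians, the methods' t-test, and leaving out tumors rich in host tissue, replicates or models. Single tumors left out in turn, and within-model relations without M6 replicate 3, were added after seeing the data.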

Additional observations from a re-analysis of the deposited data

Results flagged for a closer look

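Of 120 groups of 4 tumors (10 members in 12 models), 13 held a tumor that stood apart from the other 3 by Dixon's criterion. By chance about 1 of 20 independent groups would exceed it. The members share tumors, so these groups are not independent, and the share over all genes was not computed. In 9 of the 13 the tumor was rich in host tissue, as were 9 of all 48 tumors. In Met-1 replicate 2, with a B cell score of 4.87 and an adipocyte score of 2.57, Grhl2 read 7.62 (nearest tumor 9.16), Esrp1 9.57 (11.17) and Esrp2 8.38 (9.76). In F311 replicate 1, Zeb1 read 9.85 (8.86) and Zeb2 10.62 (10.39). In E0771 replicate 1, Twist2 read 10.53 (11.05) and Esrp1 7.68 (5.99). Grhl2 read 7.64 in R3T replicate 2 (8.03), and Ovol1 read 7.99 in 6DT1 replicate 3 (6.30).

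M6 replicate 3 was not rich in adipocyte or B cell genes but had a muscle score of 3.67, and the part of muscle was not tested. M6 replicate 3 read 11.16 for Snai1 (9.67), 6.73 for Ovol1 (7.65) and 9.83 for Esrp1, below the other 3 M6 tumors. An EMT factor was thus high and 2 epithelial regulators were low in the same tumor. Snai1 in TS/A-E1 replicate 1 read 10.22 (10.13) in a group with an SD of only 0.05.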

How the results depend on the processing

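All 10 members passed the F-test under every alternative run but 1 (Snai1 without replicate 2), and 0 passed for strain or origin under every alternative but the methods' t-test without adjustment, which called 1 for origin (Zeb2). Genes passing for strain (BALB/c minus FVB/N), 38 in all, became 489 with all tumors and the model as a random block, 446 with the replicate block added and 1545 in the unadjusted t-test, and 22, 19, 21 and 24 without 4T1, EMT-6, MVT-1 or Met-1, with a range of 19 (without EMT-6) to 51 (without 6DT1 replicate 2) over all fits leaving out a model, replicate or tumor. Genes passing for origin (spontaneous minus engineered), 8 in all, became 312, 280 and 1298 in the same settings, 13 without replicate 1, 23 without E0771, and ranged from 5 without 6DT1 to 29 without R3T. The replicate block changed no other call count by over 1.5 times, with 299 member pairs of models. Pairs of models passing fell without a replicate number to 3 for Snai1, 5 to 9 for Snai2, 18 and 19 for Twist1, 19 for Zeb1, 12 for Zeb2 and 16 and 17 for Ovol1. For Snai2 they rose to 28 without the tumors rich in host tissue and to 25 with only the compared pair in the fit. Leaving out single models moved the median r of EMT factors with epithelial regulators from -0.54 (without HRM-1) to -0.29 (without M6; -0.33 without Met-1) and that among epithelial regulators from 0.64 (without M6) to 0.83 (without E0771). The uncalled origin difference of Snai2, 0.04, changed sign to -0.15 and -0.01 without replicates 1 and 4, to -0.05, -0.06, -0.06 and -0.10 without EMT-6, F311, M6 and TS/A-E1, and to -0.04 without 6DT1 replicate 1, and reached 0.23 without E0771. That of Twist1, 0.27, ran from -0.0040 without M6 to 0.43 without R3T. The cause was not tested. Where Esrp1 lay within background, in D2A1 and MVT-1, lower levels could not be resolved. Grhl2 in MVT-1 and Ovol1 in EMT-6 lay just above background, so the folds against these models are limited in the same way.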
